A study of Mus musculus with 6 samples.

Results

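Collagens are triple-helical matrix proteins built from alpha chains, each encoded by its own gene, and the mouse genes are named Col, a type number, the letter a and a chain number. All 44 rows of the deposited gene table with a symbol of that form were taken as collagen chain genes, out of 24940 rows in all. Of these 44, 21 passed the filter on low counts and were tested, among 12687 tested genes. RNA came from primary hepatic stellate cells of female C57BL/6JBomTac mice, cultured for 2 days after isolation and then harvested after 6 hours of treatment. In 3 libraries (OCA A, B and C) 10 µM obeticholic acid (OCA) had been added. This compound is a modified bile acid and an agonist of FXR, the nuclear receptor for bile acids. In the other 3 (DMSO A, B and C) the cells had been given an equal volume of the solvent dimethyl sulfoxide (DMSO). The labels name no genetic change in the mice, and no untreated culture was analysed here. Whether the libraries of a group stem from separate mice or cultures is not stated, so p-values reflect the spread among the 6 libraries alone, and that spread may be technical.

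Hepatic stellate cells store vitamin A around the sinusoids of the liver. On injury, or on plastic, they turn into myofibroblasts and become the main source of scar collagen in this organ. Fibrillar collagens such as types I, III and V assemble into the banded fibrils of scar tissue. Type IV forms the sheet-like network of basement membranes, and types VIII and X form other networks. The fibril-associated collagens with interrupted triple helices (FACITs) decorate fibrils, and type VI builds beaded filaments that link cells to the matrix. Collagen proteins are long lived, so RNA measured at this time need not match the protein in the matrix.

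Column totals lay between 12829226 and 13234570 counts in OCA libraries and between 12260882 and 16336240 counts in DMSO libraries. Levels are given as CPM, the counts of a gene relative to the scaled library total, and 3 counts stood for 0.181 to 0.251 CPM. Each log2 fold change is that of OCA over DMSO and has a standard error (SE). Adjusted p-values come from the quasi-likelihood test of edgeR, corrected by Benjamini-Hochberg over all tested genes. A gene was called at an adjusted p under 0.05. The bile salt export pump gene Abcb11, a classic FXR target, served as a check of the treatment. It had 4.50, 4.56 and 5.57 CPM in OCA A, B and C and 0.181, 0.167 and 0.0975 CPM in DMSO A, B and C, a log2 fold change of 4.86 that was the largest of all tested genes. These values rest on 190.5 counts in OCA and 6.5 counts in DMSO. The DMSO values were at or below the level of 3 counts, so the size of this change is imprecise. All 3 OCA libraries thus carried the response of this gene.

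OCA B stood apart from OCA A and OCA C in the collagen genes. It was the highest OCA library in 19 of the 21 tested collagen genes, or 90.5%, against 33.3% of all tested genes. Its median deviation from the mean of OCA A and OCA C was 0.46 on the log2 scale over the collagen genes and 0.00 over all tested genes. Relative to the DMSO mean, the median log2 level of the 21 genes was -0.54, -0.02 and -0.57 in OCA A, B and C, against 0.04, 0.01 and -0.12 in DMSO A, B and C. On this scale, with 0.1 CPM added to each value, 18 of the 21 genes were lower in OCA A than in every DMSO library, against 31.6% of all tested genes. The count was 16 in OCA C, against 32.4% of all, and 6 in OCA B, against 27.2% of all, so that OCA B was near the share of all genes. Results are therefore given with all libraries and, where the call differs, without OCA B. OCA B was singled out on these same genes, so leaving it out favours lower calls, and those values are a description only. That limit holds for every call and p-value given below without OCA B. With OCA A or OCA C left out instead, 1 of 23 and 2 of 22 tested collagen genes were called lower. The shares of all tested genes called lower were then 0.809% and 0.976%.

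**Figure D1:**
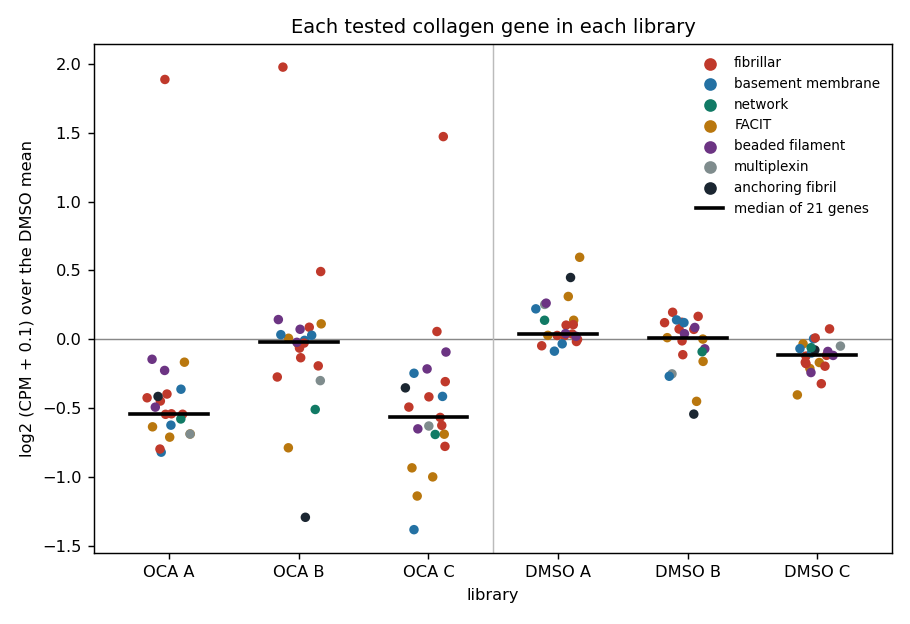
Each point is a tested collagen chain gene in one library (x axis), as log2(CPM + 0.1) minus the log2 of the DMSO mean (y axis), coloured by class, with the median of the 21 genes as a bar. The medians of OCA A and OCA C lie at -0.54 and -0.57, and that of OCA B at -0.02 lies among the DMSO libraries.

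With all 6 libraries, 3 collagen chain genes were lower under OCA (Col8a1, Col5a2 and Col1a2), 1 was higher (Col24a1) and 17 were not called. Over all tested genes 3.03% were called lower and 2.18% higher. Of 8 bins of transcript length, the longest held 13 of the 21 collagen genes, and 12.7% of all its genes were called lower. Fitted log2 fold changes were below 0 in 19 of the 21 collagen genes, with a median of -0.35, against 49.8% of all tested genes below 0 and a median of 0.00. The unadjusted p was under 0.05 in 13 of the 21, against 19.0% of all tested genes. In 4 collagen genes (the 3 called lower and Col18a1) each OCA library was below each DMSO library, against 11.3% of all tested genes, and in Col24a1 each was above, against 11.6%. Without OCA B, 13 of the 21 were called lower and Col24a1 remained higher, while 5.90% of all tested genes were then called lower and 2.83% higher.

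The genes that passed the test lie on 4 chromosomes, and the upstream stretches of 3 of them are shown as the promoter side of the genes with a call. Each stretch is the 250 bases before the RefSeq gene start in build GRCm38.p6, written 5′ to 3′ on the gene's strand. Col24a1 is chr3:145292222-145292471 on the plus strand, Col8a1 is chr16:57754738-57754987 on the minus strand and Col1a2 is chr6:4505368-4505617 on the plus strand. Capitals mark AGGTCA, an element bound by many nuclear receptors, and CCAAT, the element bound by the factor NF-Y.
Col24a1: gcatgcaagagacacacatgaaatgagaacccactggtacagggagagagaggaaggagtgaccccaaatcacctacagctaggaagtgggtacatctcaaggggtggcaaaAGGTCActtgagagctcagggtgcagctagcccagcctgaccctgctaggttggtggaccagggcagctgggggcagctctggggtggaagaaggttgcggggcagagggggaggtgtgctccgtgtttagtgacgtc
Col8a1: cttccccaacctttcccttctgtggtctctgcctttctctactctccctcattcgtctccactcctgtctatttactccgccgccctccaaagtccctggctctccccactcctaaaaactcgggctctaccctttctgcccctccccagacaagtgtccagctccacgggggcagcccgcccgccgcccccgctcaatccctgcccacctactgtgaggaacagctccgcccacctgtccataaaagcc
Col1a2: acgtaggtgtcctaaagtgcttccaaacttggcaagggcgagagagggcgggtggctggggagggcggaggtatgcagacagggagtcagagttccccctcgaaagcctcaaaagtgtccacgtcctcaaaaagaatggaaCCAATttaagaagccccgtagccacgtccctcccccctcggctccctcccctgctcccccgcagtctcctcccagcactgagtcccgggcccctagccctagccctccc
The Col24a1 stretch held 1 AGGTCA, 138 bases before the start, and the Col1a2 stretch held 1 CCAAT, 109 bases before the start. Neither motif, nor TATAAA, was found in the Col8a1 stretch. Motifs were searched on both strands of this window in 27025 RefSeq genes, of which 13.8% held AGGTCA, 34.5% held CCAAT, 13% held TATAAA and 32.9% held GGGCGG, a site for Sp1-like factors. Among the 17 tested collagen genes with an entry, AGGTCA was in 3 (Col20a1, Col24a1 and Col7a1), CCAAT in 8, TATAAA in 1 (Col3a1) and GGGCGG in 11. The genes with GGGCGG included Col8a1 and Col1a2, and this motif is not marked in the stretches above. The inverted repeat AGGTCANTGACCT, the arrangement preferred by FXR with its partner RXR, contains AGGTCA and was in 0 of the 17 and in 0.0074% of all. A match of letters is a description of the window and not a site of binding.

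Among the fibrillar chains, 8 of 11 were tested, 2 were called lower, 1 was called higher and 5 were not called. Type I collagen, the main collagen of scar, is a trimer of chains encoded by Col1a1 and Col1a2. Col1a2 (NM_007743, mm10 chr6:4505618-4541543, plus strand) had 200.1, 265.9 and 196.9 CPM in OCA A, B and C, against 299.6, 307.2 and 268.1 CPM in DMSO A, B and C. Every OCA library lay below every DMSO library, OCA B by the least. The means were 221 ± 39.0 CPM in OCA and 292 ± 20.7 CPM in DMSO (SD, n = 3 each), and the log2 fold change was -0.40 (SE 0.09, adjusted p = 0.0173 by edgeR). The call was lost with robust estimation (adjusted p = 0.0580 by edgeR), and also when OCA C (0.111), OCA A (0.122), DMSO B (0.0662) or DMSO A (0.0790) was left out.

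Col1a1, its partner chain, had 701, 1016 and 716 CPM in OCA A, B and C, against 974, 1042 and 852 CPM in DMSO A, B and C. OCA A and OCA C lay below all DMSO libraries, and OCA B lay among them. Its log2 fold change was -0.24 (SE 0.12, adjusted p = 0.276 by edgeR), and without OCA B it was called lower (-0.43, adjusted p = 0.00560 by edgeR). Per kilobase of transcript, the Col1a1 level was 3.08, 3.36 and 3.20 times the Col1a2 level in OCA A, B and C, against 2.86, 2.98 and 2.79 times in DMSO A, B and C. All OCA ratios lay above all DMSO ratios, and the difference was not tested. The same held for Col5a1 per Col5a2 and Col6a1 per Col6a2, while for Col5a2 per Col1a1 all OCA ratios lay below. Groups overlapped for Col6a3 per Col6a1 and Col3a1 per Col1a1. No share over other pairs of genes was taken.

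Type V collagen sits inside type I fibrils and sets their diameter, with chains from Col5a1, Col5a2 and Col5a3. Col5a2 (NM_007737, mm10 chr1:45374331-45503282, minus strand) had 341, 519 and 346 CPM in OCA A, B and C, against 592, 588 and 597 CPM in DMSO A, B and C. The DMSO libraries were nearly level, and each OCA library was lower than all of them. The means were 402 ± 101 CPM in OCA and 592 ± 4.35 CPM in DMSO (SD, n = 3 each), and the log2 fold change was -0.56 (SE 0.11, adjusted p = 0.00617 by edgeR). It was called in 17 of 20 alternative analyses, the exceptions being DESeq2 (adjusted p = 0.0946), edgeR with robust estimation (0.116) and edgeR without OCA A (0.0641).

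Col5a1 had 371, 530 and 384 CPM in OCA A, B and C, against 581, 568 and 472 CPM in DMSO A, B and C, and was not called (log2 fold change -0.33, SE 0.11, adjusted p = 0.0892 by edgeR). OCA B was again inside the DMSO range, and without it the gene was called lower (-0.52, adjusted p = 0.000285 by edgeR). Col5a3, the rarest of these chains, averaged 6.39 ± 0.285 CPM in OCA and 8.03 ± 1.42 CPM in DMSO (SD, n = 3 each) and was not called with or without OCA B. Type III collagen is a homotrimer of Col3a1 chains and co-assembles with type I. Col3a1 had 390, 500.1 and 339 CPM in OCA A, B and C and 517, 568 and 482 CPM in DMSO A, B and C (log2 fold change -0.35, SE 0.11, adjusted p = 0.0608 by edgeR). OCA B overlapped the lowest DMSO library, and without OCA B the gene was called lower (-0.52, adjusted p = 0.000215 by edgeR). Col3a1 and Col5a2 are neighbours on chromosome 1, with 24624 bases between them.

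Col24a1 encodes the chain of type XXIV collagen, a minor fibrillar collagen best known from developing bone, and was the only collagen gene called higher. The gene (NM_027770, mm10 chr3:145292472-145552011, plus strand) had 6.15, 6.55 and 4.59 CPM in OCA A, B and C, against 1.54, 1.84 and 1.40 CPM in DMSO A, B and C. These rest on 82, 85.5 and 58.5 counts in OCA and 25.5, 22 and 21.5 counts in DMSO. The groups were far apart, and OCA B lay close to OCA A. The mean level was 5.76 ± 1.04 CPM in OCA and 1.59 ± 0.225 CPM in DMSO (SD, n = 3 each), which is 3.59-fold higher by the fit (log2 fold change 1.84, SE 0.31, adjusted p = 0.000925 by edgeR). That was the 19th largest positive log2 fold change of the 12687 tested genes. The call held in all 20 alternative analyses, with log2 fold changes between 1.72 and 1.98. Col27a1, which encodes the related type XXVII chain of cartilage, averaged 8.31 ± 2.89 CPM in OCA and 7.95 ± 0.535 CPM in DMSO (SD, n = 3 each) and was not called (log2 fold change 0.06, SE 0.23).

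**Figure D2:**
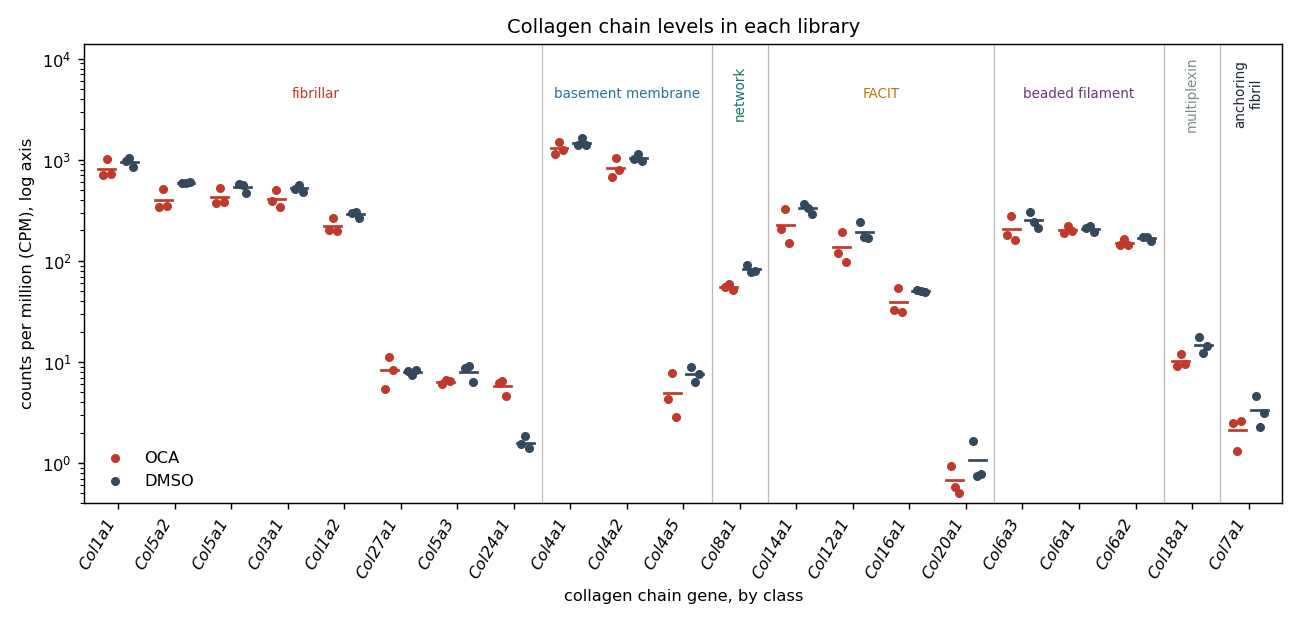
CPM on a log axis for each tested collagen chain gene, ordered by class and level, with 1 point a library (OCA red, left; DMSO dark, right) and the group mean as a bar. In most genes OCA B is the upper OCA point, while Col24a1 shows OCA points at 4.59 to 6.55 CPM above DMSO points at 1.40 to 1.84 CPM.

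Of 6 basement membrane chains 3 were tested, and none was called with all libraries. Type IV heterotrimers of Col4a1 and Col4a2 chains are the common form in vessel walls, and these were the most abundant and the second most abundant collagen RNAs by CPM. Col4a1 had 1152, 1515 and 1248 CPM in OCA A, B and C, against 1395, 1632 and 1412 CPM in DMSO A, B and C (log2 fold change -0.18, SE 0.10, adjusted p = 0.351 by edgeR). Col4a2 had 680, 1042 and 786 CPM in OCA A, B and C, against 1024, 1140 and 978 CPM in DMSO A, B and C (log2 fold change -0.32, SE 0.12, adjusted p = 0.118 by edgeR). In both genes OCA A and OCA C were below all DMSO libraries and OCA B was not. Without OCA B, Col4a2 was called lower (-0.51, adjusted p = 0.00110 by edgeR) and Col4a1 was not (-0.30, adjusted p = 0.0952 by edgeR). The Col4a1 level per kilobase was 1.65, 1.41 and 1.54 times that of Col4a2 in OCA A, B and C, against 1.32, 1.39 and 1.40 times in DMSO A, B and C. As for Col1a1 per Col1a2, the OCA ratios lay above the DMSO ratios, OCA B by a narrow margin, and the difference was not tested.

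Col4a1 and Col4a2 are read in opposite directions from a shared start region. The short stretch where their transcripts overlap is shown because it belongs to both, and whether any read fell on it is not known. It spans 22 bases at chr8:11312805-11312826 in GRCm38.p6, written on the plus strand.
Col4a1 and Col4a2: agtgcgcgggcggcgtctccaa
No source used here gives the strand setting of the authors' counting, so reads on these bases cannot be assigned to either gene, although the transcripts are 6579 and 6400 bases long. Col4a5, a chain of the kidney and skin forms of type IV, had a mean of 4.97 ± 2.53 CPM in OCA and 7.61 ± 1.29 CPM in DMSO (SD, n = 3 each). It was not called (log2 fold change -0.63, SE 0.29, adjusted p = 0.245 by edgeR), and without OCA B it was called lower (-1.11, adjusted p = 0.0107 by edgeR). The remaining members Col4a3, Col4a4 and Col4a6 were too low to test.

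The network class held 1 tested gene of 3, and it was called lower. Type VIII collagen is a short-chain collagen of vessel walls and of the membrane below the corneal endothelium, and Col8a1 encodes its alpha-1 chain. Col8a1 (NM_007739, mm10 chr16:57624256-57754737, minus strand) had 55.7, 58.5 and 51.5 CPM in OCA A, B and C, against 91.6, 78.2 and 79.8 CPM in DMSO A, B and C. The groups were well apart, and OCA B stood close to OCA A and OCA C. The means were 55.2 ± 3.48 CPM in OCA and 83.2 ± 7.33 CPM in DMSO (SD, n = 3 each), so the level fell by 33.7% (log2 fold change -0.59, SE 0.08, adjusted p = 0.000112 by edgeR). Col8a1 had the smallest p of the collagen genes and was called in all 20 alternative analyses, with log2 fold changes between -0.63 and -0.52.

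The FACIT class held 4 tested genes of 9, and none was called with all libraries. The FACIT median was -0.52 on the log2 scale, that of fibrillar chains -0.33, that of basement membrane chains -0.32 and that of beaded filament chains -0.15, and differences between classes were not tested. Without OCA B these medians were -0.75, -0.47, -0.51 and -0.22 in the same order, so that the basement membrane median was then the lower of the middle pair. After correction for a trend on transcript length they were -0.37, -0.21, -0.23 and -0.10. Types XII and XIV collagen bind the surface of type I fibrils. Col14a1 had 205, 323 and 150.1 CPM in OCA A, B and C, against 363, 333 and 294 CPM in DMSO A, B and C (log2 fold change -0.55, SE 0.16, adjusted p = 0.0606 by edgeR). Col12a1 had 119, 195 and 97.1 CPM in OCA A, B and C, against 241, 174 and 167 CPM in DMSO A, B and C (log2 fold change -0.50, SE 0.17, adjusted p = 0.0954 by edgeR). OCA B lay inside the DMSO range in both genes, at more than 1.5 times the level of OCA A. Without OCA B, which was singled out on these same genes, both were called lower, as a description only. Col14a1 was then at -0.89 (adjusted p = 6.34e-08 by edgeR) and Col12a1 at -0.85 (adjusted p = 4.60e-07 by edgeR). Neither was called without OCA A or without OCA C. Col14a1 was at -0.48 without OCA A (adjusted p = 0.239 by edgeR) and -0.32 without OCA C (0.234). Col12a1 was at -0.41 (adjusted p = 0.327 by edgeR) and -0.31 (0.369) in the same order.

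Col16a1, another fibril-associated chain, averaged 39.3 ± 13.1 CPM in OCA and 50.2 ± 1.07 CPM in DMSO (SD, n = 3 each) and was not called (log2 fold change -0.36, SE 0.14, adjusted p = 0.180 by edgeR). It was called lower in 4 of 20 alternative analyses, among them that without OCA B (-0.66, adjusted p = 1.45e-05 by edgeR). Col20a1 was near the limit of testing, at 0.674 ± 0.230 CPM in OCA and 1.06 ± 0.515 CPM in DMSO (SD, n = 3 each), and was not called.

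Type VI collagen, of which 3 chains of 6 were tested, had the median nearest to 0 among the classes with more than 1 tested gene. Col6a3 had 179.8, 279 and 161 CPM in OCA A, B and C, against 303, 241 and 214 CPM in DMSO A, B and C (log2 fold change -0.29, SE 0.15, adjusted p = 0.286 by edgeR). Col6a1 had 189, 219 and 196 CPM in OCA A, B and C, against 212, 221 and 192 CPM in DMSO A, B and C (log2 fold change -0.05, SE 0.07, adjusted p = 0.753 by edgeR). The groups overlapped in both genes. Without OCA B, Col6a3 was called lower (-0.57, adjusted p = 0.000108 by edgeR) while Col6a1 was at -0.12 (adjusted p = 0.413 by edgeR). Col6a2, the neighbour of Col6a1 on chromosome 10, averaged 151 ± 12.3 CPM in OCA and 168 ± 8.56 CPM in DMSO (SD, n = 3 each) and was not called in any of the 20 alternative analyses.

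Col18a1 encodes the chain of type XVIII collagen, whose end fragment is endostatin. It had 9.11, 11.95 and 9.49 CPM in OCA A, B and C, against 17.6, 12.4 and 14.2 CPM in DMSO A, B and C (log2 fold change -0.54, SE 0.17, adjusted p = 0.0807 by edgeR). The groups did not overlap, but OCA B was close to DMSO B. Without OCA B the gene was called lower (-0.67, adjusted p = 0.0246 by edgeR). Col7a1, the chain of the anchoring fibrils of skin, had 2.47, 1.302 and 2.59 CPM in OCA A, B and C, against 4.58, 2.26 and 3.15 CPM in DMSO A, B and C (log2 fold change -0.66, SE 0.37, adjusted p = 0.344 by edgeR). Its groups overlapped, and OCA B was here the lowest OCA library.

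**Figure D3:**
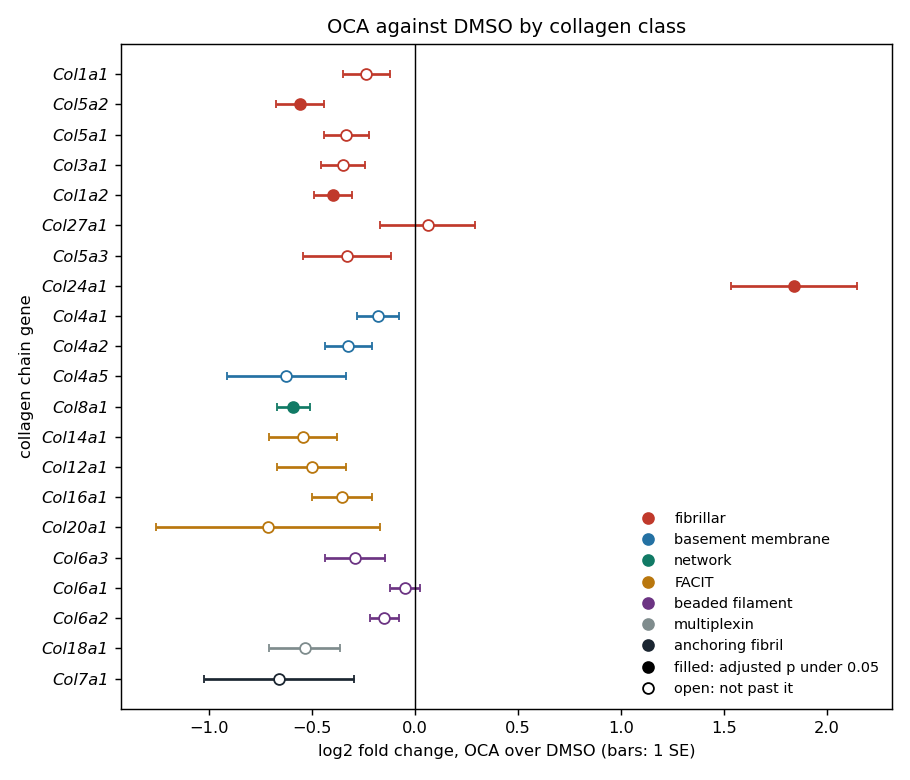
Log2 fold change of OCA over DMSO with bars of 1 SE for each tested collagen chain gene, coloured by class, with filled points for adjusted p under 0.05. Points of 19 of 21 genes lie left of 0, and Col24a1 stands alone at 1.84.

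The other 23 collagen chain genes did not pass the filter. Among them Col2a1 and Col6a6 were listed at 0 in all libraries, and the highest was Col11a2, with 43.5 counts over the 6 libraries. No collagen of the transmembrane class was tested (0 of 4). A difference in these 23 genes was not assessed in the main test. With no low-count filter 39 collagen genes were tested, and no gene of these 23 was called.

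The sum over all 44 genes was 4795, 6733 and 4885 CPM in OCA A, B and C, against 6870, 7159 and 6261 CPM in DMSO A, B and C. OCA A and OCA C were below all DMSO libraries, while OCA B was within their range. Summed levels averaged 2293 ± 488 CPM in OCA and 2921 ± 209 CPM in DMSO for fibrillar chains, and 403 ± 153 CPM in OCA and 576 ± 74.4 CPM in DMSO for FACIT chains (SD, n = 3 each). The sums were 2147 ± 376 CPM in OCA and 2535 ± 211 CPM in DMSO for basement membrane chains, and 559 ± 91.0 CPM in OCA and 629 ± 61.9 CPM in DMSO for beaded filament chains (SD, n = 3 each). OCA B had the highest OCA sum in each of these 4 classes. In bulk libraries fewer cells of a type and less RNA per cell cannot be told apart.

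Levels of different genes were compared per kilobase of the transcript length given in the table. The highest level was that of Col4a1, at 198 ± 28.6 CPM per kilobase in OCA and 225 ± 20.1 in DMSO (SD, n = 3 each). Col1a1 followed at 138 ± 30.2 CPM per kilobase in OCA and 163 ± 16.4 in DMSO, and Col4a2 at 131 ± 29.1 in OCA and 163.7 ± 13.01 in DMSO (SD, n = 3 each). The order of Col1a1 and Col4a2 was not separated by their spread. Then came Col3a1, Col5a2, Col5a1, Col6a1 and Col1a2. Col3a1 and Col5a2 lay within their spread of each other, while Col5a2 exceeded Col5a1 in every library. Col6a1 exceeded Col1a2 in every OCA library and was below it in every DMSO library, and this difference was not tested. Cultured stellate cells thus carried more RNA per kilobase of the basement membrane chain Col4a1 than of any fibrillar chain.

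Transcript length was examined because longer transcripts had lower log2 fold changes over all tested genes. Tested collagen transcripts were 3699 to 11651 bases long with a median of 6398, against a median of 2933 over all tested genes. Of 8 equal bins of length, the longest held 13 of the 21 collagen genes, and in that bin the median log2 fold change of all genes was -0.14, with 12.7% of its genes called lower and 2.27% higher. Of its 13 collagen genes 1 was called lower. In the 2 bins before it, 2 of 5 and 0 of 3 collagen genes were called lower, against 3.85% and 3.53% of all their genes. The median log2 fold change of all genes was 0.10 in the shortest bin. Of the 21 collagen genes 19 lay below the median of their own bin, the exceptions being Col24a1 and Col27a1. Across all tested genes Pearson's r between log2 length and log2 fold change was -0.20, and across the 21 collagen genes it was 0.05, or -0.10 without Col24a1, given as a description across genes.

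After each library was corrected for a trend on length, the same 3 genes were called lower and Col24a1 was called higher, while 1.79% of all tested genes were called lower and 2.75% higher. The corrected log2 fold changes were -0.52 for Col8a1 (adjusted p = 3.42e-05), -0.46 for Col5a2 (adjusted p = 0.0140), -0.33 for Col1a2 (adjusted p = 0.0279) and 1.96 for Col24a1 (adjusted p = 0.000271), all by edgeR. The median over the 21 genes was -0.27, against -0.35 without the correction.

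**Figure D4:**
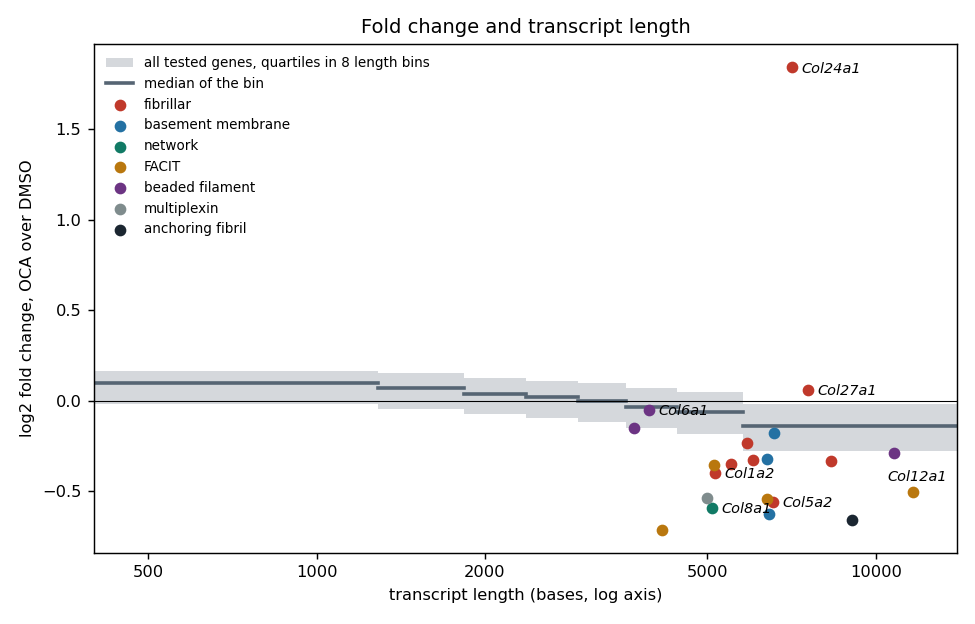
Log2 fold change of OCA over DMSO against transcript length in bases (log axis) for each tested collagen chain gene, over the median and quartiles of all tested genes in 8 bins of length; the first and last bins run on past the axis. Collagen genes lie in the 3 longest bins and 19 of 21 are below the line of their bin.

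Genes that serve collagen outside the chains were taken from lists of known roles. Their counts stand beside 3.03% of all tested genes called lower, 2.18% called higher and 49.8% below 0, and no list was tested against these shares. Of 17 genes for folding and hydroxylation of procollagen, 2 were called lower and 0 higher (median log2 fold change -0.11, against 0.00 over all tested genes). Plod2, a lysyl hydroxylase of the collagen telopeptides, averaged 122 ± 5.43 CPM in OCA and 155 ± 3.11 CPM in DMSO (SD, n = 3 each; log2 fold change -0.35, adjusted p = 0.00261 by edgeR). P3h3, of the prolyl 3-hydroxylase family, was at -0.33 (adjusted p = 0.0276 by edgeR). Of 9 tested export genes 0 were called in either direction (median 0.01). Sec31a, a coat protein of the vesicles that carry procollagen, averaged 423 ± 1.12 CPM in OCA and 378 ± 11.2 CPM in DMSO (SD, n = 3 each).

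Of 6 tested propeptide cleavage genes 1 was called lower and 0 higher, and all 6 were below 0 (median -0.32). Of these 6, 4 have transcripts in the 2 longest bins of length, where 65.8% and 78.4% of all tested genes were below 0. Adamts2, which removes the amino propeptide of fibrillar procollagens, had 100.8, 138 and 97.9 CPM in OCA A, B and C, against 162, 149.99 and 148 CPM in DMSO A, B and C (log2 fold change -0.45, adjusted p = 0.00935 by edgeR). OCA B was its highest OCA library, as in most collagen genes. Of 6 crosslinking genes 1 was called lower, Loxl4 of the lysyl oxidase family (-0.28, adjusted p = 0.0368 by edgeR), and 0 were called higher (median -0.13).

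Of 8 tested collagen receptor genes 0 were called, and all 8 were below 0 (median -0.17). All 8 have transcripts in the 3 longest bins of length, where 58.1%, 65.8% and 78.4% of all tested genes were below 0. The integrin subunit gene Itgb1 averaged 684 ± 46.6 CPM in OCA and 756 ± 71.5 CPM in DMSO, and the discoidin receptor gene Ddr2 360.4 ± 17.7 CPM in OCA and 389.8 ± 22.9 CPM in DMSO (SD, n = 3 each). Of 7 tested degradation genes 1 was called lower, the lysosomal protease gene Ctsl (-0.30, adjusted p = 0.0311 by edgeR), and 0 were called higher (median -0.04). Of 6 tested fibril-binding proteoglycans 0 were called (median -0.09). Bgn, which encodes biglycan, averaged 443 ± 96.6 CPM in OCA and 566 ± 69.6 CPM in DMSO (SD, n = 3 each).

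Of 24 tested regulators of collagen expression 1 was called lower, against 3.03% of all tested genes, and 2 higher, against 2.18% (median -0.04). This list held TGF-beta ligands and receptors besides factors that act on promoters. Nfya encodes a subunit of NF-Y and averaged 41.0 ± 1.65 CPM in OCA and 51.2 ± 2.49 CPM in DMSO (SD, n = 3 each; log2 fold change -0.32, adjusted p = 0.0287 by edgeR). Sox9, a driver of cartilage collagen genes, had 10.5, 6.51 and 6.04 CPM in OCA A, B and C, against 2.05, 2.05 and 3.51 CPM in DMSO A, B and C (log2 fold change 1.60, adjusted p = 0.00322 by edgeR). Creb3l1, a membrane-bound factor that acts on type I collagen genes, averaged 294 ± 16.7 CPM in OCA and 231 ± 11.4 CPM in DMSO (SD, n = 3 each; log2 fold change 0.35, adjusted p = 0.00453 by edgeR). The groups did not overlap for Sox9, and OCA A was its highest library.

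Markers of the labelled cell type were all tested (10 of 10) and summed to 1862 to 2223 CPM in OCA libraries and 2109 to 2285 CPM in DMSO libraries, with 2 called lower (Reln and Rgs5), 1 higher (Lhx2) and 5 of 10 below 0. Rgs5 and Lhx2 are named after their values were seen. The stellate marker Reln had 261, 489 and 225 CPM in OCA A, B and C, against 632, 508 and 502 CPM in DMSO A, B and C (log2 fold change -0.75, adjusted p = 0.0198 by edgeR). Lhx2 had 170.0, 159 and 156 CPM in OCA A, B and C, against 129, 139.6 and 144 CPM in DMSO A, B and C (log2 fold change 0.23, adjusted p = 0.0470 by edgeR). Des, the muscle intermediate filament gene, had 425, 418 and 429 CPM in OCA A, B and C, against 346, 402 and 368 CPM in DMSO A, B and C, and was not called (log2 fold change 0.19, adjusted p = 0.142 by edgeR). The stellate markers thus did not share a direction.

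Portal fibroblast markers summed to 56.4 to 111 CPM in OCA and 121 to 142 CPM in DMSO, mostly from Fbln2, the 1 called lower of 4 tested, with 49.0, 102 and 49.7 CPM in OCA A, B and C and 131, 112 and 133 CPM in DMSO A, B and C. Eln, another of the 4, had 5.62, 4.98 and 4.28 CPM in OCA A, B and C, against 3.11, 2.92 and 3.51 CPM in DMSO A, B and C, the opposite direction without overlap, and was not called (log2 fold change 0.63, adjusted p = 0.212 by edgeR). Of the 4 tested markers 3 were below 0 (median log2 fold change -0.70), against 49.8% of all tested genes. Fbln2 and Reln showed the order of the libraries seen in the collagens, with OCA B nearest to DMSO, and their part in the collagen result was not tested. Of the 6 portal fibroblast markers the defining marker Thy1 was at 0 in all libraries.

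The sum of 8 hepatocyte markers was 2.34 to 6.00 CPM in OCA and 2.38 to 3.65 CPM in DMSO, that of 8 endothelial markers 2.94 to 6.52 CPM in OCA and 4.01 to 5.93 CPM in DMSO, and that of 8 macrophage markers 7.16 to 8.63 CPM in OCA and 6.35 to 12.8 CPM in DMSO. These ranges overlapped between groups. Cholangiocyte markers summed to 11.6 to 15.3 CPM in OCA and 8.73 to 9.68 CPM in DMSO, with Krt7 at 0 in all libraries and Sox9 the 1 called gene of that list. Spp1, the next most abundant, had 3.90, 3.75 and 4.82 CPM in OCA A, B and C, against 6.48, 5.52 and 5.20 CPM in DMSO A, B and C, opposite to Sox9, and was not called (log2 fold change -0.46, adjusted p = 0.332 by edgeR). The cholangiocyte sums did not overlap between groups, a difference carried by Sox9. That gene averaged 7.67 ± 2.43 CPM in OCA and 2.54 ± 0.844 CPM in DMSO (SD, n = 3 each). The part of these markers in the collagen result was not tested. Mesothelial markers summed to 0.941 to 1.42 CPM in OCA and 0.724 to 1.92 CPM in DMSO, and lymphocyte markers to at most 0.383 CPM in OCA and 0.195 CPM in DMSO.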

How the data were processed

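Per the labels' protocols, 6 libraries were made from polyadenylated RNA with the NEBNext Ultra kit. The submitters' processing notes name STAR, HOMER and mm10; no source used here gives versions, the strand setting or the handling of multiply mapped reads. The table deposited by the authors holds unadjusted exon counts in steps of 0.5, handled like expected counts, and 26.5% to 29.8% of values per library were not whole. Counts were rounded to whole numbers (ties to even) and tested with R 4.3.3 and edgeR 4.0.16, using filterByExpr, TMM factors, the quasi-likelihood test (two-sided, no replicate block) and Benjamini-Hochberg adjustment over 12687 genes. CPM uses the deposited counts on TMM-scaled totals. The SE is the log2 fold change divided by the square root of F. Libraries of a group differed beyond sampling noise (chi-square per degree of freedom 4.30 to 7.78). Floors of 3 counts cover counting error only.

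Collagen classes, pathway and marker lists came from general knowledge, and the members and lists were chosen with earlier results of these data known. Collagen genes could all be named. Called ones and up to 2 tested genes of the highest CPM in each class have values in every library. From each pathway list up to 4 called genes, or else up to 2 of the highest level, and from each marker list up to 3 of the highest level could be named. The 4 tested collagen genes Col1a1, Col5a2, Col12a1 and Col14a1 have no RefSeq promoter shown. The fit was tested on simulated data of 12687 genes, with 50 genes changed at each size. It called 50% of 1.3-fold, 70% of 1.5-fold, 90% of 2-fold and 96% of 3-fold changes, and 10 unchanged genes. The simulated spread followed the fitted trend, with no library set apart as OCA B was. A gene not called may therefore still have changed. Alternatives were DESeq2 1.42.0, limma-voom (limma 3.58.1), 3 other scalings, 2 other filters, unrounded counts, a replicate block, robust estimation, length and counts-per-base trends and leaving out libraries.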

Additional observations from a re-analysis of the deposited data

How the results depend on the processing

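Col8a1 and Col24a1 were called in the same direction in all 20 alternatives, and Col24a1 was the only collagen gene called higher in each. The number of collagen genes called lower, 3 of 21, was more variable. It was 5 with limma-voom (3.18% of all tested genes called lower), 6 with library totals alone (3.29%), 12 of 39 tested genes with no low-count filter (3.77%), 1 with robust estimation (Col8a1; 2.73%), 5 with the length trend and the replicate block together (2.43%), and 11 without OCA B and DMSO A together (4.75%). Leaving out one library gave 1 to 13 calls, 1 without OCA A and 13 without OCA B, 2 without OCA C, DMSO A or DMSO B and 3 without DMSO C; the cause was not tested. Over all tested genes the calls were 104 lower without OCA A and 758 without OCA B, against 384 with all libraries. The median log2 fold change of the collagen genes stayed below 0, between -0.52 and -0.24. Col27a1, never called, changed sign to -0.0090 with limma-voom and -0.20 without OCA B and DMSO A, and lay between -0.22 and 0.29 with one library left out. DESeq2 gave no adjusted p for Col20a1. Per kilobase the ratio of Col4a1 to Col1a1 was 1.41.

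Whether the letters A to C pair the libraries is not stated in the labels, so no pairing entered the main test. The correlations of same-letter deviations were 0.0005, -0.04 and 0.05. With the replicate block 9 collagen genes were called lower and 1 higher, and 508 of all tested genes (4%) were called lower. With 3 libraries a group, changes of low genes such as Col20a1 and Col7a1, with SEs of 0.54 and 0.37, were not resolved at this depth.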
